A study of Mus musculus with 39 samples.

Results

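The 10 Rag1-high B lymphomas were set against the 10 Rag1-low B lymphomas among 39 tumours of Eµ-myc transgenic mice. B lymphomas were taken as the 33 tumours with a Pou2af1 level of 8 or more on the log2 scale, and Pou2af1 encodes a transcriptional coactivator of B cells. These were ranked by Rag1, the 10 highest and the 10 lowest were selected, and 13 intermediate B lymphomas lay between them. The groups were thus chosen by measured values and are not groups that the labels give. Pou2af1 and Rag1 describe the choice and were not tested.

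Every tumour carried the Eµ-myc transgene, in which the immunoglobulin heavy chain enhancer drives Myc in B lineage cells. The labels give 1 genotype for all tumours and no normal tissue, treatment, outcome, strain, age or batch. Mice were killed when they showed lymphoma or looked ill, and RNA from frozen, ground tumour tissue was measured on 1 short-oligonucleotide array per tumour. Whether 1 mouse gave more than 1 tumour is not stated, so a p-value here reflects the scatter among these tumour samples alone, and the number of arrays limits the precision. In whole tissue, fewer cells of a type and less RNA per cell cannot be told apart.

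Rag1 and Rag2 encode the 2 subunits of the recombinase that cuts immunoglobulin gene segments in precursor B cells and T cells. The breaks are joined by the end joining machinery, the surrogate light chain then tests a new heavy chain in the pre-B receptor, and interleukin 7 supports these cells. Both Rag genes are shut off in resting mature B cells, and Eµ-myc lymphomas are known to range from precursor to mature B cell stages.

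Rag1 was measured by 1 probe set. It was highest in tumours 29 (11.81, log2), 31 (11.55), 11 (10.42) and 22 (10.16), followed by tumours 17 (9.43), 34 (9.02), 12 (7.98), 20 (7.56), 3 (7.52) and 21 (7.44). The Rag1-low lymphomas lay between 3.18 in tumour 2 and 4.13 in tumour 7, with a median of 3.62. The tumour just inside the Rag1-high group was tumour 21 (7.44) and the one just outside it tumour 35 (7.26). Just outside the Rag1-low group lay tumour 37 (4.43), and just inside it tumour 7 (4.13). The ranking had no gap at the upper boundary, so the Rag1-high group joined tumours with a very high level to tumours near the intermediate ones. In the 6 tumours with Pou2af1 under 8, Rag1 ran from 3.25 to 3.87, which lies within the range of the Rag1-low lymphomas.

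Pou2af1, by which B lymphomas were selected, had a median of 12.82 in Rag1-high and 12.71 in Rag1-low lymphomas. The tumour just inside its threshold was tumour 32 (10.59) and the one just outside it tumour 26 (6.81). The B lineage label was checked on other markers. Cd79a, a signalling chain of the B cell receptor, ran from 8.93 to 9.96 (median 9.47) in Rag1-high and from 8.66 to 10.13 (median 9.38) in Rag1-low lymphomas. The B lineage score, the mean over 10 genes of the level minus the gene's mean over all tumours, had a median of 0.55 and a range of -0.66 to 0.86 in Rag1-high lymphomas, against a median of 0.60 and a range of 0.30 to 0.87 in Rag1-low lymphomas. The low end of the Rag1-high group was tumour 21. Similar scores do not mean that each marker was equal, since 4 of the 10 genes had a Rag1-high minus Rag1-low difference above 0. The differences ran from -2.37 for Ms4a1 to 1.44 for Vpreb3, the latter -0.06 without Rag1-low tumours 1, 2, 18 and 27. Of the intermediate tumours, tumour 32 lay below both groups, with a B lineage score of -1.31 and a Cd79a level of 7.37. It also had the highest plasmacytoid dendritic cell score of the 33 (3.04), so these markers go against its B lineage label.

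4 Rag1-low tumours stood apart. Scores of 14 cytotoxic lymphocyte genes were highest in tumour 2 (3.41), followed by tumours 27 (2.33), 18 (1.96) and 1 (1.46). They ran from -0.98 to 0.19 in Rag1-high lymphomas and from -0.67 to 0.10 in the other 6 Rag1-low lymphomas. Tumour 2 also had the lowest mean correlation with the other arrays among the 20 (0.918) and a Myc level of 8.19, against 10.72 in the next lowest Rag1-low tumour. For named genes and lists, values without these 4 tumours are given beside differences that turned sign or moved by over 1.5 times. This choice was made after their values were seen.

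Over all genes, no gene passed the test between the 10 Rag1-high and the 10 Rag1-low lymphomas. Of 18191 genes tested with limma, 0 (0%) had an adjusted p under 0.05, and in 0 (0%) did the groups fail to overlap. At an unadjusted p under 0.05 there were 1500 genes (8.25%), of which 837 (4.6%) were higher and 663 (3.64%) lower in Rag1-high lymphomas. Centring each array on its median changed that split to 1480 higher and 389 lower, because it moved the median difference of all genes to 0.09 (log2), against 0.01 as deposited. The difference was above 0 in 51.9% of all genes, and in 47.7% without tumours 1, 2, 18 and 27. Counts of list members below are to be read beside these shares. A difference of at least 1 (log2, a doubling) was seen in 279 genes, 70 higher and 209 lower. The smallest adjusted p was 0.0688, for Rag2, and the next was 0.342, for Pex11a.

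**Figure D1:**
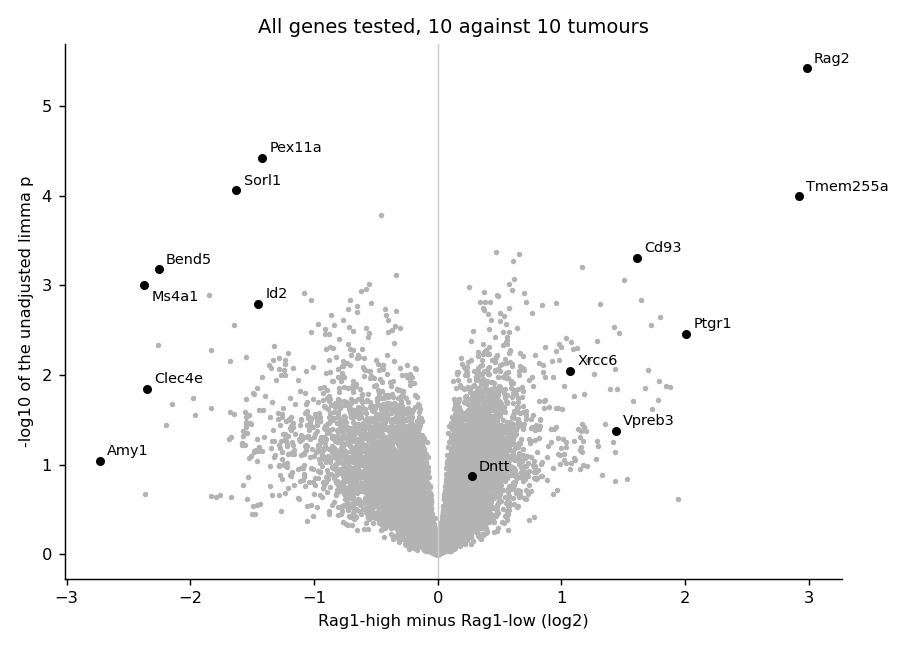
Each point is 1 of 18191 genes, with the mean log2 level in 10 Rag1-high minus that in 10 Rag1-low lymphomas on the x axis and -log10 of the unadjusted limma p on the y axis. Rag2 lies at 2.98 and apart from the rest, and no gene had an adjusted p under 0.05.

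Rag2, the other recombinase subunit and the chromosomal neighbour of Rag1, had the largest positive difference of all genes. Its highest levels were in tumours 31 (9.89), 29 (9.40), 11 (8.18) and 20 (8.17), followed by tumours 22 (7.63), 17 (7.43), 34 (7.03), 3 (6.81), 21 (5.34) and 12 (4.76). The Rag1-low lymphomas lay between 4.25 and 4.82 with a median of 4.42. Thus 9 of 10 Rag1-high lymphomas exceeded every Rag1-low lymphoma, and tumour 12, with Rag1 at 7.98, did not. The difference was 2.98 ± 0.48 (log2, SE, n = 10 each; 95% interval 1.99 to 3.98), and it missed the threshold (limma, adjusted p = 0.0688).

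The call on Rag2 turned on single tumours. Without tumour 12 the difference was 3.29 (limma, adjusted p = 0.00225) and without tumour 21 it was 3.22 (adjusted p = 0.0117). Over the 20 fits that left out 1 tumour each, the adjusted p ran from 0.00225 to 0.209 and the difference from 2.72 to 3.29. Without the 4 Rag1-low tumours 1, 2, 18 and 27 the difference was 2.95, with an unadjusted p of 0.000157 and an adjusted p of 0.966. The levels of Rag2 in the Rag1-low lymphomas overlapped those in the 6 tumours with low Pou2af1, which ran from 4.25 to 4.80.

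Along the continuous Rag1 level, Rag2 rose with Rag1 over all 33 B lymphomas. The slope was 1.44 ± 0.11 per SD of Rag1 (log2, SE, n = 33; 1 SD was 2.53), with an adjusted p of 1.6e-10 in limma. That fit called 2 of 18191 genes (0.011%), both positive, and had 1455 genes at an unadjusted p under 0.05. The 13 intermediate lymphomas were used by neither group, and Rag2 ran there from 4.30 to 6.56 with a median of 4.97. Its slope among them was 0.62 ± 0.14 per log2 of Rag1 (unadjusted p = 0.000673, adjusted p = 0.999 in limma), and it stood at place 8 by p-value. Tumour 35, with the highest intermediate Rag1 level (7.26), also had the highest intermediate Rag2 level. No gene was called in the intermediate tumours (0%), where 803 had an unadjusted p under 0.05.

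**Figure D2:**
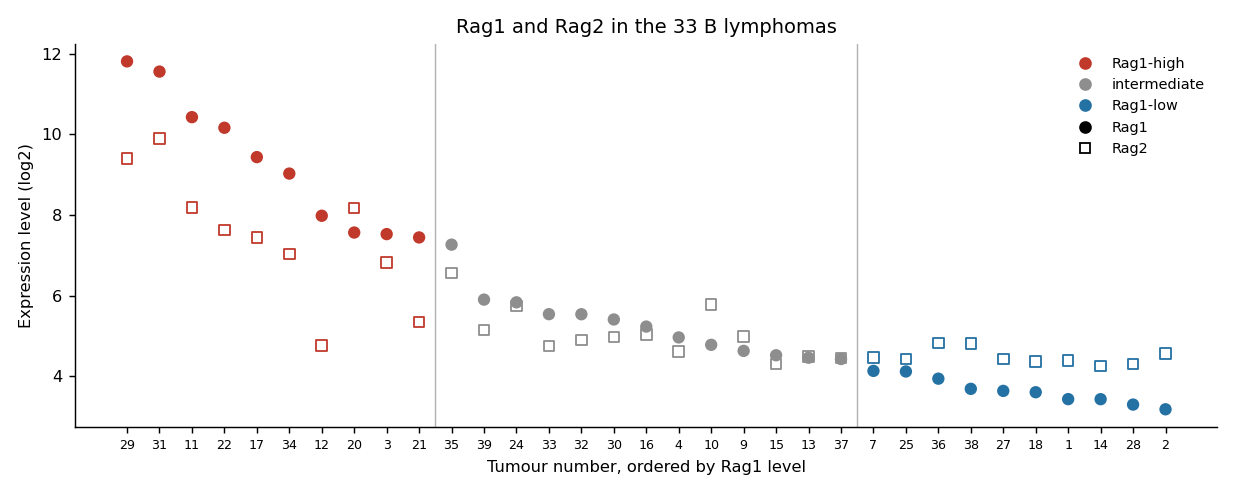
Levels of Rag1 (filled circles) and Rag2 (open squares) in log2 for each of the 33 B lymphomas, ordered by Rag1, with Rag1-high tumours on the left, intermediate ones in the middle and Rag1-low ones on the right. Rag2 lies at 4.82 or lower in all Rag1-low tumours and reaches 9.89 in tumour 31, while tumour 12 has a low Rag2 level beside a Rag1 level of 7.98.

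The other gene on the 33-tumour slope was Tmem255a, a transmembrane protein gene on the X chromosome, chosen here after its values were seen. Tmem255a rose by 1.46 ± 0.26 per SD of Rag1 (limma, adjusted p = 0.0202). It ran from 6.00 to 11.03 (median 8.02) in Rag1-high lymphomas, from 3.06 to 9.70 (median 6.10) in intermediate ones and from 3.86 to 7.15 (median 5.15) in Rag1-low ones. The highest levels were in tumours 31 (11.03), 29 (10.59) and 3 (9.96), and 7 of 10 Rag1-high lymphomas exceeded every Rag1-low one. Between the 2 groups the difference was 2.92 ± 0.61 (adjusted p = 0.459), and 2.34 without tumours 1, 2, 18 and 27. Among the intermediate tumours the slope was 1.35 ± 0.63 per log2 of Rag1 (limma, unadjusted p = 0.051, adjusted p = 0.999).

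The promoters of these 3 genes are shown because their transcripts went together across the 33 tumours. Each window runs from 250 bases before to 50 after an annotated start, 5′ to 3′ on the gene's strand, from RefSeq on GRCm38.p6. They are chr2:101649483-101649782 (minus strand) for Rag1, chr2:101624462-101624761 (plus strand) for Rag2 and chrX:38252432-38252731 (minus strand) for Tmem255a. The RefSeq locus of Tmem255a ends at 38252496, so its window is not set on the outermost base of the locus. Capitals mark matches on either strand to CANNTG, the E-box that E proteins such as Tcf3 bind, to CCAAT, the CCAAT box, to the Ikaros core TGGGAA, to the Foxo core TAAACA and to the Ebf1 core CCCNNGGG.
Rag1: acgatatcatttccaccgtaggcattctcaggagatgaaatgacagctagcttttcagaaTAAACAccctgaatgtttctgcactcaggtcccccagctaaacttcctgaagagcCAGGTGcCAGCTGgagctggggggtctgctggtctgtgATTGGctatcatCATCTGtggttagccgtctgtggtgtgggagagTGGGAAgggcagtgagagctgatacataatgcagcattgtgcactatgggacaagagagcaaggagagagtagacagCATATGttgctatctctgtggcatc
Rag2: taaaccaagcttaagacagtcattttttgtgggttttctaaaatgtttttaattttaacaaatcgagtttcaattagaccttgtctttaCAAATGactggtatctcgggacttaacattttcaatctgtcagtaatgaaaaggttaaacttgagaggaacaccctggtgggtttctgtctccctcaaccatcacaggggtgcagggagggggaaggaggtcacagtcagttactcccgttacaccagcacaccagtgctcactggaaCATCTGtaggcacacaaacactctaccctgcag
Tmem255a: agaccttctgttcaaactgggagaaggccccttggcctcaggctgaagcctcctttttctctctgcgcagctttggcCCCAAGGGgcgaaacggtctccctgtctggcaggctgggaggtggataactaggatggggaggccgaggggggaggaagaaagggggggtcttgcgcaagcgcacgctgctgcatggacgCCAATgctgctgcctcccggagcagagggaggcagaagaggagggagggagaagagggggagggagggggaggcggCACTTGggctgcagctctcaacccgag

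The Rag1 window held 4 E-boxes and 1 match each to the CCAAT box, the Ikaros core and the Foxo core. The Rag2 window held 2 E-boxes and no match to the other letters searched. The Tmem255a window held 1 E-box, 1 CCAAT box and 1 Ebf1 core. Of 32851 mouse promoter windows of the same length, 72.3% held the E-box, 37.4% the CCAAT box, 25.6% the Ikaros core, 13.4% the Foxo core and 13.7% the Ebf1 core. No 2 of these motifs overlapped in a window, and of the 5 only the E-box was found in all 3. A match describes these letters and is not a binding site.

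Iftap, whose annotated locus overlaps Rag2 in the RefSeq gene table, was looked at for that reason. It had a difference of 0.85 ± 0.29 (limma, adjusted p = 0.58), with a range of 5.73 to 8.01 in Rag1-high and of 5.21 to 7.11 in Rag1-low lymphomas. Its probe sets disagreed (lowest r = 0.02), and the 6 tumours with low Pou2af1 had 8.18 or more of it. Its level therefore did not follow Rag1 outside the B lymphomas.

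The rest of the recombination machinery did not pass the test. Besides Rag2, 10 members of the list were measured, 0 of 11 were called, 2 (Rag2 and Xrcc6) had an unadjusted p under 0.05 in the higher direction and 0 in the lower. The median difference over the 11 genes was 0.21, against 0.01 over all genes, and 10 of 11 were above 0, against 51.9% of all genes. The count above 0 was 7 of 11 without tumours 1, 2, 18 and 27 (median 0.11), 6 with T cell and macrophage scores as covariates (0.04) and 5 with the G2/M score as covariate (-0.0058). In these fits 47.7%, 46.7% and 48.5% of all genes were above 0. Xrcc6, which encodes the Ku70 subunit that binds broken ends, ran from 9.55 to 12.63 (median 10.41) in Rag1-high and from 7.35 to 10.37 (median 9.51) in Rag1-low lymphomas. Its difference was 1.07 ± 0.37 (adjusted p = 0.58) and was 0.54 without tumours 1, 2, 18 and 27. Tumour 21 held the highest level and tumour 2 the lowest.

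Dntt, the terminal transferase that adds bases at heavy chain joints in precursor cells, was near the bottom of its scale in both groups. It ran from 4.65 to 6.19 (median 5.07) in Rag1-high and from 4.44 to 5.29 (median 5.00) in Rag1-low lymphomas. The difference was 0.28 ± 0.18 with a 95% interval of -0.09 to 0.65. The Rag1-high lymphoma with the highest Dntt level was tumour 12, whose Rag2 level was the lowest of the group.

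The other genes of the recombination list, most of them end joining genes, had intervals of the difference that span 0. The difference was 0.04 for Prkdc, the DNA-dependent protein kinase (95% interval -0.27 to 0.35), and -0.04 for Xrcc4, the partner of ligase 4 (-0.36 to 0.27). It was 0.20 for Xrcc5, the Ku80 subunit (-0.39 to 0.79), 0.18 for Nhej1 (-0.15 to 0.51) and 0.08 for the polymerase gene Polm (-0.64 to 0.80). Lig4, the ligase itself, had 0.21 with a wide interval (-0.86 to 1.29). Without tumours 1, 2, 18 and 27 the values were -0.45 for Lig4, -0.18 for Xrcc5 and -0.07 for Nhej1. They were -0.14 for Polm, 0.025 for Prkdc and 0.12 for Xrcc4. Poll, another end joining polymerase, had 0.31 (-0.01 to 0.63), and Hmgb2, a cofactor of the recombinase, had 0.40 (-0.07 to 0.87), or 0.11 without the 4 tumours. Of these 8 genes, Xrcc4, Prkdc, Polm, Nhej1, Xrcc5 and Lig4 changed sign in at least 1 alternative.

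**Figure D3:**
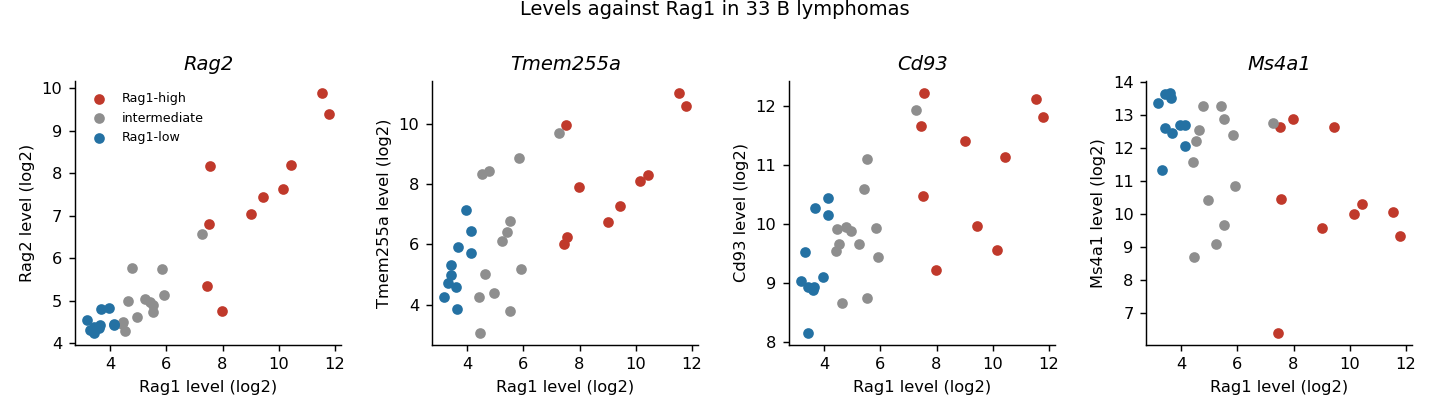
Log2 levels of Rag2, Tmem255a, Cd93 and Ms4a1 (y axes) against the log2 level of Rag1 (x axes) in 33 B lymphomas, coloured by group. Rag2 and Tmem255a are highest in tumours 31 and 29, while Ms4a1 runs from 6.40 to 12.88 in Rag1-high and from 11.34 to 13.67 in Rag1-low lymphomas.

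The pre-B receptor genes did not pass the test. Of 9 measured genes 0 were called, and 1 (Vpreb3) had an unadjusted p under 0.05, against 4.6% of all genes in the higher direction. Their median difference was 0.17, with 7 above 0, against 51.9% of all genes. Without tumours 1, 2, 18 and 27 the median was -0.0011, with 4 of 9 above 0, against 47.7% of all genes. Vpreb1 and Igll1 encode the 2 parts of the surrogate light chain. Vpreb1 ran from 4.67 to 10.40 (median 5.08) in Rag1-high and from 4.67 to 5.84 (median 5.03) in Rag1-low lymphomas, with a difference of 1.04 ± 0.59 (adjusted p = 0.58). The excess came from tumours 29 (10.40), 21 (8.57), 34 (7.20) and 20 (6.09), and the other 6 Rag1-high lymphomas lay at 5.15 or lower. Tumour 31, with the second highest Rag1 level, had a Vpreb1 level of 5.15. The highest Vpreb1 level among the 33 tumours selected by Pou2af1 was in an intermediate one, tumour 32 (11.51), where Rag2 was 4.90. Its B lineage score was the lowest of the 33 (-1.31), so it may not be a B lymphoma.

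Igll1 was high in tumours that had a high Vpreb1 level, namely 29 (10.49), 21 (9.48) and 34 (8.07). It had a median of 6.56 in Rag1-high and 6.37 in Rag1-low lymphomas, a difference of 0.81 ± 0.49 (0.54 without tumours 1, 2, 18 and 27), and probe sets that disagreed (lowest r = -0.04). Vpreb3, which binds immunoglobulin chains in the endoplasmic reticulum, ran from 11.38 to 12.43 in Rag1-high and from 6.23 to 12.63 in Rag1-low lymphomas. Its difference of 1.44 ± 0.66 was set by 4 tumours, since it was -0.06 without tumours 1, 2, 18 and 27. The receptor chain genes Cd79a (0.04, 95% interval -0.29 to 0.37) and Cd79b (0.02, -0.24 to 0.28) and the adaptor gene Blnk (-0.01, -0.44 to 0.42) had differences near 0. The kinase genes Syk (-0.07, -0.57 to 0.42) and Btk (0.17, -0.19 to 0.53) had intervals of similar width. Without tumours 1, 2, 18 and 27 the differences were -0.10 for Cd79a, -0.0011 for Cd79b and 0.24 for Blnk. They were 0.03 for Syk and -0.05 for Btk, so the sign turned for each of these genes.

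Transcription factors known to act on Rag genes or on precursor B cells were measured for all 28 listed genes. None was called (0 of 28), 1 had an unadjusted p under 0.05 in the higher direction (Irf4) and 4 in the lower (Id2, Irf8, Spib and Ikzf3), and the median difference was 0.09. The median was 0.02 without tumours 1, 2, 18 and 27, with 15 of 28 above 0, against 17 with them. Of all genes 47.7% were above 0 without these tumours and 51.9% with them. With them 4.6% of all genes were higher and 3.64% lower at an unadjusted p under 0.05. Id2, an inhibitor of E proteins, ran from 7.20 to 8.78 (median 7.95) in Rag1-high and from 7.51 to 11.79 (median 8.97) in Rag1-low lymphomas. Its difference was -1.45 ± 0.40 (limma, adjusted p = 0.58), and -0.72 without tumours 1, 2, 18 and 27. All Rag1-low lymphomas except tumour 14 (7.51) had an Id2 level of at least 8.74.

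Spib, an Ets factor of B cells, had a difference of -0.64 ± 0.21, and -0.51 without the 4 tumours. It ran from 10.25 to 12.11 in Rag1-high and from 11.06 to 12.61 in Rag1-low lymphomas, and 5 of 10 Rag1-high lymphomas lay below every Rag1-low one. Irf4 and Irf8 are related factors that act in pre-B cells. The difference was 0.59 ± 0.27 for Irf4 (0.60 without the 4 tumours) and -0.85 ± 0.31 for Irf8 (-0.32 without them). Ikzf3, which encodes Aiolos, had -0.71 ± 0.30 and -0.08 without them. Adjusted p-values of these 4 genes were 0.58 in limma.

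E proteins, Foxo1 and the early B cell factors, which are needed for Rag transcription in mice, had no called difference. Foxo1 had a difference of 0.13 (95% interval -0.45 to 0.72) with probe sets that disagreed (lowest r = -0.31), and 0.60 without tumours 1, 2, 18 and 27 (unadjusted p = 0.031, not called). Tcf3 had 0.46 (-0.02 to 0.94) and 0.05 without these tumours, Ebf1 had 0.39 (-0.17 to 0.95), Pax5 had -0.20 (-0.48 to 0.07) and Ikzf1, which encodes Ikaros, had -0.22 (-0.44 to 0.00). The progenitor factors Sox4 (1.17 ± 0.61, probe sets disagreeing with r = 0.08), Myb (1.04 ± 0.51) and Lef1 (0.97 ± 0.71) had positive differences. Without the 4 tumours these were 0.50 for Sox4, -0.01 for Myb and 1.18 for Lef1. The repressor genes Gfi1b (-0.54 ± 0.42) and Bcl6 (-0.999 ± 0.78) and the stress gene Gadd45a (0.30 ± 0.26) had intervals that span 0. Without the 4 tumours the difference was -1.01 for Gfi1b, 0.49 for Bcl6, with the sign turned, and 0.57 for Gadd45a, and none was called.

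Surface genes of progenitor and immature B cells were not called in any case (0 of 14), and their median difference was 0.19. At an unadjusted p under 0.05 in the higher direction were 2, against 4.6% of all genes. Cd93, the AA4.1 antigen of immature B cells, came nearest. It ran from 9.22 to 12.22 (median 11.27) in Rag1-high, from 8.66 to 11.94 (median 9.89) in intermediate and from 8.15 to 10.45 (median 9.06) in Rag1-low lymphomas. Thus 7 of 10 Rag1-high lymphomas exceeded every Rag1-low one, and tumours 12 (9.22), 22 (9.55) and 17 (9.97) did not. The difference was 1.61 ± 0.39 (limma, adjusted p = 0.58) and 1.22 without tumours 1, 2, 18 and 27. Among the intermediate tumours the slope was 0.69 ± 0.24 per log2 of Rag1 (limma, unadjusted p = 0.014, adjusted p = 0.999).

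The interleukin 7 receptor gene Il7r, chosen after its values were seen, ran from 6.55 to 12.77 (median 9.86) in Rag1-high and from 6.99 to 11.02 (median 8.15) in Rag1-low lymphomas. The difference was 1.15 ± 0.69 and 1.73 without the 4 tumours, with neither called. Tumour 21 (12.77) and tumour 29 (11.78), which also had the highest Vpreb1 of the Rag1-high group, had the highest Il7r levels, while tumour 17 (6.55) was the lowest of both groups. Enpep, the BP-1 antigen of pre-B cells, spread from 5.19 to 11.59 in Rag1-high and from 5.32 to 11.59 in Rag1-low lymphomas, with a difference of 1.33 ± 0.84 (0.69 without the 4 tumours). Kit (-0.62 ± 0.38) and Flt3 (-0.31 ± 0.47), receptors of earlier progenitors, had negative differences that were 0.09 and 0.19 without the 4 tumours. Of 14 genes of interleukin 7 signalling 4 were above 0 (median -0.13), against 51.9% of all genes, and 2 had an unadjusted p under 0.05 in the lower direction. Without tumours 1, 2, 18 and 27 the median was 0.09, with 8 of 14 above 0, against 47.7% of all genes. At that p were then 2 higher and 0 lower, against 338 and 431 of 18191 genes. With T cell and macrophage scores as covariates 9 of 14 were above 0, against 46.7% of all genes. These counts do not settle a direction for the list.

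The 2 with the lower level over all 20 tumours were Cish, a feedback inhibitor of cytokine receptors, and Bcl2. Bcl2, a survival gene that is higher in mature than in pre-B cells of mice, ran from 5.74 to 10.27 (median 8.08) in Rag1-high and from 8.17 to 11.05 (median 9.16) in Rag1-low lymphomas. Its difference was -1.31 ± 0.47 (limma, adjusted p = 0.58) and -0.95 without the 4 tumours. Over the 14 measured BCL2 family genes the median difference was -0.26, and it was -0.11 without the 4 tumours. With all 20 tumours 3 were above 0, against 51.9% of all genes, and 0 were called.

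Ms4a1, which encodes CD20 of mature B cells, had the largest negative difference of the mature B cell list. It ran from 6.40 in tumour 21 to 12.88 in tumour 12 (median 10.19) in Rag1-high lymphomas and from 11.34 in tumour 28 to 13.67 in tumour 18 (median 12.69) in Rag1-low lymphomas. In 7 of 10 Rag1-high lymphomas it was below every Rag1-low one, and tumours 12 (12.88), 17 (12.65) and 3 (12.63) were not. The difference was -2.37 ± 0.62 (limma, adjusted p = 0.58), and -1.88 without tumours 1, 2, 18 and 27. In the 13 intermediate tumours the slope was 0.43 ± 0.53 per log2 of Rag1 (unadjusted p = 0.43 in limma), which does not settle its direction there.

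Of 26 measured mature B cell genes 0 were called, 4 had an unadjusted p under 0.05 in the lower direction and 2 had a difference above 0, with a median of -0.68. Over all genes 3.64% were lower at that p and 51.9% were above 0. Tnfrsf13c, the receptor of the survival factor BAFF, had -1.02 ± 0.28 and -0.50 without the 4 tumours. Fcmr, an IgM receptor gene, had -1.57 ± 1.10 (0.13 without them), Cr2, the complement receptor CD21, had -1.46 ± 0.82 (0.04), and the activation gene Cd83 had -1.16 ± 0.62 (0.19). The list's median without the 4 tumours was -0.09, with 11 of 26 above 0, against 47.7% of all genes. Tnfrsf13c, Fcmr, Cr2 and Cd83 were chosen after their values were seen.

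All 9 measured MHC class II genes had negative differences, while 51.9% of all genes were above 0. Their median was -0.69, 0 were called and 2 were lower at an unadjusted p under 0.05, against 3.64% of all genes. The 2 were H2-DMa, a peptide loading chain (-1.07 ± 0.51), and Ciita, the class II transactivator (-0.95 ± 0.41). Without the 4 tumours the median was -0.04, with 3 of 9 above 0, against 47.7% of all genes. H2-DMa then had -0.14 and Ciita -0.25. The MHC class II scores ran from -1.45 to 1.05 in Rag1-high lymphomas and from -0.996 to 2.62 in Rag1-low ones.

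Germinal centre genes (median -1.04, 0 of 10 above 0), cytotoxic genes (-1.07, 0 of 14), interferon genes (-0.75, 0 of 17), NF-kB genes (-0.54, 0 of 16) and T cell genes (-0.53, 2 of 16) had the same sign. At an unadjusted p under 0.05 were 8 cytotoxic, 6 interferon, 3 germinal centre, 1 T cell and 0 NF-kB genes, each in the lower direction, and 0 of these genes were called. Over all genes 3.64% were lower at that p and 51.9% were above 0. Without tumours 1, 2, 18 and 27 the medians were 0.09 for germinal centre, -0.01 for cytotoxic, -0.27 for interferon, 0.19 for NF-kB and 0.17 for T cell genes. These tumours stood apart by their cytotoxic scores, so the move of cytotoxic genes toward 0 followed from that choice and tests nothing. Gcsam, a germinal centre gene, had -1.58 ± 0.80 and -0.08 without them. Tbx21, the T-bet factor of cytotoxic and helper cells, had -1.67 ± 0.80 and 0.06 without them. Germinal centre scores were 4.11 in tumour 18 and 3.65 in tumour 27 and ran from -0.87 to 0.50 in the Rag1-high lymphomas. The plasma cell list had a median of -0.55 (3 of 12 above 0) and 0.17 without the 4 tumours, with Ell2 at -2.26 ± 0.71 (-0.83 without them) and probe sets that disagreed (lowest r = -0.07).

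Proliferation genes had the opposite sign and the same dependence. All 19 G2/M genes were above 0 with a median of 0.49 and 1 at an unadjusted p under 0.05, all 21 S phase genes with 0.41 and 4, and 23 of 24 Myc targets with 0.33 and 2. None was called, and over all genes 51.9% were above 0 and 4.6% were higher at that p. Kif20a, a mitotic kinesin gene, had 0.69 ± 0.31 and Gins1, of the replicative helicase, had 0.65 ± 0.33. Without tumours 1, 2, 18 and 27 the medians were 0.05 for G2/M, 0.12 for S phase and -0.01 for Myc targets, and the differences were 0.24 for Kif20a and 0.14 for Gins1. Tumour 2 had a G2/M score of -2.56 and tumour 1 of -1.06, while the Rag1-high lymphomas ran from -0.19 to 0.62. Myc, the gene of the transgene, ran from 11.30 to 12.24 in Rag1-high and from 8.19 to 12.45 in Rag1-low lymphomas, with a difference of 0.40 ± 0.40. Its sign turned to -0.38 without tumours 1, 2, 18 and 27 (unadjusted p = 0.0066, not called) and to -0.10 without tumours 2 and 18. It was -0.18 with the G2/M score and -0.19 with the T cell and macrophage scores as covariates.

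**Figure D4:**
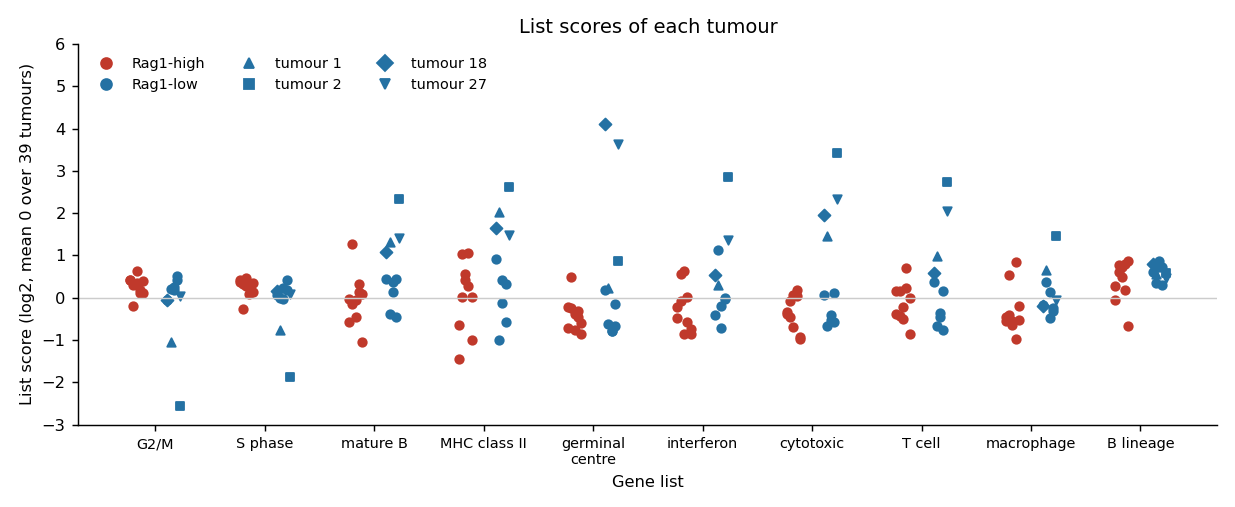
List scores (log2, mean of the members relative to all 39 tumours) for each Rag1-high tumour (left of each pair) and each Rag1-low tumour (right), with Rag1-low tumours 1, 2, 18 and 27 marked by shape. Tumour 2 has a cytotoxic score of 3.41 and a G2/M score of -2.56, and tumours 18 and 27 have germinal centre scores of 4.11 and 3.65.

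Most lists of other cells in the tissue had medians below 0, but the fibroblast list did not. The part of such cells in the results was not tested. T cell scores ran from -0.86 to 0.71 in Rag1-high and from -0.77 to 2.73 in Rag1-low lymphomas, and macrophage scores ran from -0.98 to 0.84 in Rag1-high and from -0.48 to 1.47 in Rag1-low lymphomas. Cd3g, a T cell receptor chain gene, ran from 3.81 to 8.06 in Rag1-high and from 5.03 to 11.14 in Rag1-low lymphomas, and its difference was -1.98 ± 0.77 (-0.78 without the 4 tumours). Of the macrophage list 2 of 19 were above 0 (median -0.42), of the neutrophil list 0 of 15 (-0.46), of the dendritic cell list 1 of 10 (-0.30), of the fibroblast list 7 of 14 (0.00) and of the endothelium list 2 of 12 (-0.12). The share above 0 over all genes was 51.9%. Leaving out tumours 1, 2, 18 and 27 gave medians of -0.12 for macrophage, -1.06 for neutrophil, 0.12 for dendritic cell, 0.12 for fibroblast and 0.06 for endothelium genes. With T cell and macrophage scores as covariates Rag2 had a difference of 2.77 (limma, adjusted p = 0.376), and with the G2/M score 2.85 (adjusted p = 0.388).

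No member of the other lists was called either (0 of each). The median was 0.08 for D cyclins and their kinases, 0.03 for the Myc network, -0.00 for erythroid genes, -0.08 for p53 targets, -0.11 for B cell receptor signalling and -0.11 for the B lineage markers. It was -0.29 for thymocyte, -0.32 for plasmacytoid dendritic cell, -0.32 for chemokine and adhesion and -0.45 for adipocyte genes. The 4 measured immunoglobulin chain genes had a median of -0.73. The sign turned without tumours 1, 2, 18 and 27 for immunoglobulin chain (0.28), thymocyte (0.14), plasmacytoid dendritic cell (0.15), chemokine and adhesion (0.11) and p53 target genes (0.10). It also turned for B cell receptor signalling (0.03), D cyclins and their kinases (-0.05) and the Myc network (-0.11). The median was then -0.63 for adipocyte, -0.06 for erythroid and -0.08 for B lineage genes.

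Salivary gland genes had the most negative median, -1.49, and it was -3.34 without tumours 1, 2, 18 and 27. The secretory gene Amy1 was at 13.11 in the Rag1-high tumour 3 and at 4.49 or less in the other 9 Rag1-high lymphomas. Of the Rag1-low lymphomas, tumours 25 (14.18), 38 (12.94) and 7 (12.57) had high Amy1 levels. Such levels were thus seen in 1 Rag1-high and 3 Rag1-low tumours, and their part in other results was not tested. The difference of Amy1 was -2.73 ± 1.53 and was not called, and it was -4.47 without tumours 1, 2, 18 and 27.

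**Figure D5:**
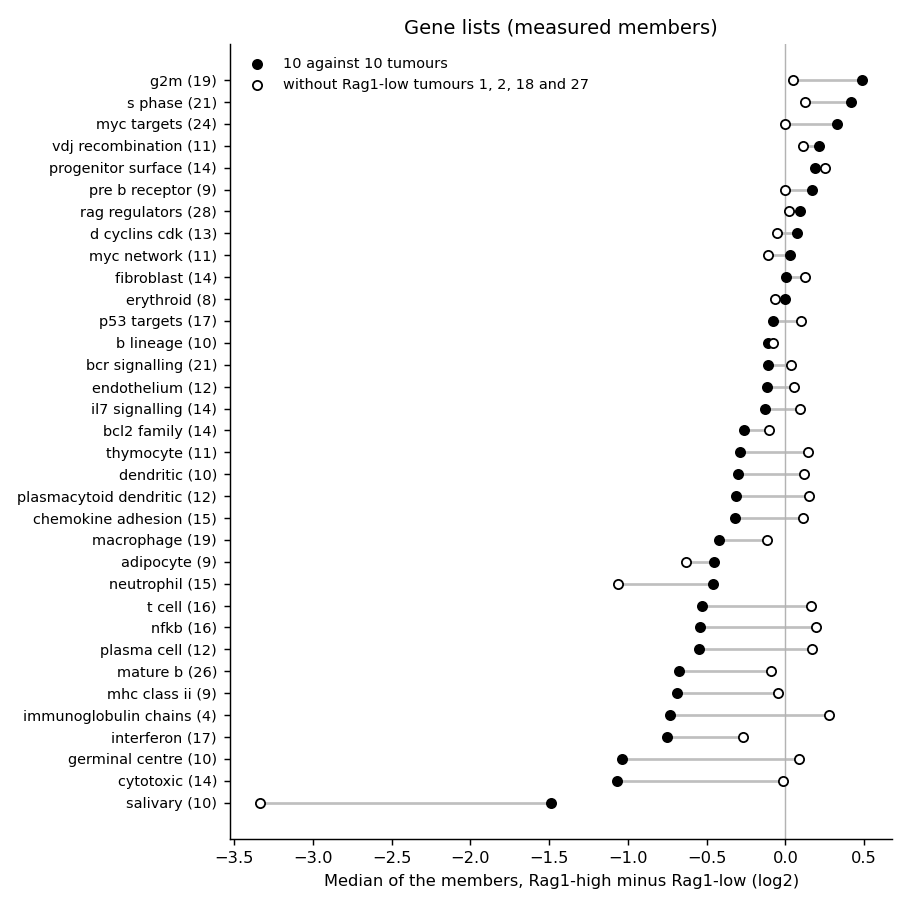
Median log2 difference, Rag1-high minus Rag1-low, over the measured members (number in brackets) of each of 34 gene lists, with all 20 tumours (filled) and without Rag1-low tumours 1, 2, 18 and 27 (open). The cytotoxic median is -1.07 filled and -0.01 open, and the V(D)J recombination median 0.21 filled and 0.11 open. The tumours left out stood apart by their cytotoxic scores, so the move of the cytotoxic median followed from that choice.

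Some genes outside the lists came near the top of the ranking by p-value and were chosen after their values were seen. Pex11a, a peroxisome gene, ran from 5.06 to 6.41 (median 5.86) in Rag1-high and from 5.99 to 8.78 (median 7.15) in Rag1-low lymphomas, with a difference of -1.42 ± 0.27 (limma, adjusted p = 0.342). It was -1.27 without tumours 1, 2, 18 and 27. In the intermediate tumours the slope was -0.75 ± 0.19 per log2 of Rag1 (limma, unadjusted p = 0.0013, adjusted p = 0.999). Pex11a therefore had the same sign in tumours that neither group used, but was not called there. Sorl1, a sorting receptor gene, had -1.63 ± 0.33 (adjusted p = 0.459), with 7 of 10 Rag1-high lymphomas below every Rag1-low one, but a slope of -0.02 ± 0.28 in the intermediate tumours. Bend5 had -2.25 ± 0.56, or -1.50 without tumours 1, 2, 18 and 27, and a slope in the intermediate tumours of 0.09 ± 0.34.

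Among positive differences, Ptgr1, a prostaglandin reductase gene, had 2.01 ± 0.61 (0.72 without the 4 tumours). Cpm, a carboxypeptidase gene, had 1.80 ± 0.52 (1.40), Aplnr, the apelin receptor gene, had 1.72 ± 0.51 (1.19) and Hspa12b had 1.16 ± 0.29 (1.02). Hspa12b ran from 5.04 to 7.61 in Rag1-high and from 4.65 to 6.21 in Rag1-low lymphomas, and 7 of 10 Rag1-high lymphomas lay above every Rag1-low one. Plek, of blood cells, had -1.85 ± 0.50 (-0.89), and Clec4e, a myeloid receptor gene, had -2.35 ± 0.88 (-0.38). None of these 6 genes was called, and limma gave each an adjusted p of 0.58.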

How the data were processed

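The authors deposited 1 log2 expression level per probe set and tumour, for which the submitters' processing notes name RMA and affy. RMA subtracts background, forces all arrays to 1 distribution and combines the probes of a set, which compresses dim genes and hides changes in total RNA per cell. Neither version nor filter is given in the sources used here. In all, the table held 39 arrays and 45101 probe sets. Of these, 34945 named 1 gene in the platform annotation, 932 several and 9160 none, and 64 were controls. Each of 18193 genes took the probe set with the highest mean, and Rag1 and Pou2af1 were left out of the tests. Array medians ran from 5.61 to 5.78.

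Groups were compared with limma 3.58.1 in R 4.3.3 (lmFit and eBayes with trend, 2-sided, Benjamini-Hochberg over all genes tested, threshold 0.05). Where an estimate is followed by ± without other wording, it is the SE, with n = 10 tumours in each group. Probe sets of a gene were called disagreeing where their lowest r was under about 0.1. The fit was also run on simulated data with independent normal values for each gene. Such values do not copy genes that vary together or single outlying tumours.

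The members and the 34 gene lists (485 of 538 entries measured) were chosen with earlier results of these data known. Named genes were to be the 15 called genes with the largest difference in each direction, all V(D)J recombination, pre-B receptor and Rag regulator genes, and the leading member of each other list. As no gene was called, the first part named none. The rule let a selection of list members be printed, and not all of the 28 measured Rag regulator genes are described. Genes outside that rule, beyond those said above, are Tmem255a, Iftap, Enpep, Kit, Flt3, Ciita, Xist and Eif2s3y. Alternatives were array weights, other eBayes settings, the mean of probe sets, a filter on level, array centring, covariates, the slope over 33 tumours and leaving out tumours.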

Additional observations from a re-analysis of the deposited data

Results flagged for a closer look

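Of 170 gene and group combinations, 20 held 1 tumour far from the other 9 of its group by the gap to the nearest tumour relative to the range. Chance flags about 1 in 20. Tumour 2 accounted for 8 of the Rag1-low cases, with lower levels than all others for Xrcc5 (6.72, next 8.45), Hmgb2 (10.91, next 12.76), Xrcc6 (7.35, next 8.76), Myc (8.19, next 10.72), Kif20a (6.74, next 8.99) and Gins1 (7.19, next 8.84). It was higher than all others for Kit (8.92, next 6.88) and Cd14 (9.82, next 7.61).

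In other Rag1-low lymphomas, Ighm was 8.11 in tumour 18 (next 13.11), Gfi1b 10.23 in tumour 7 (next 7.56) and Enpep 11.59 in tumour 28 (next 8.15). The probe sets of Ighm disagreed (lowest r = -0.23).

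In Rag1-high lymphomas, tumour 21 was highest for Xrcc6 (12.63, next 10.88) and lowest for Btk (9.16, next 10.19) and Scd1 (7.48, next 9.67). Tumour 12 was lowest for Gins1 (9.06, next 10.16) and highest for Rasgrp3 (9.45, next 6.51). Tumour 3 was lowest for Blnk (10.79, next 11.63) and highest for Amy1 (13.11, next 4.49). Flt3 was 10.07 in tumour 22 (next 7.51) and Clec4e 6.72 in tumour 31 (next 4.92).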

How the results depend on the processing

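The count of genes called higher was 0 in the comparison of 10 with 10 and 2 on the slope over 33 tumours. It was 1 with array weights, 1 with each array minus its median and 1 without tumours 21 and 29, and it was 0 to 1 over the 20 fits that left out 1 tumour (1 without tumour 12 or tumour 21). The count called lower was 0 in every alternative run. The number of genes at an unadjusted p under 0.05 was 1500, 1869 with centred arrays, 1021 without tumours 21 and 29, 900 without tumours 2 and 18, 844 with T cell and macrophage scores, 732 with the G2/M score and 769 without tumours 1, 2, 18 and 27. It ran from 1007 to 2110 when 1 tumour was left out. The 2 alternatives without tumours 1, 2, 18 and 27 and without tumours 21 and 29 were chosen after seeing the data. Over the alternatives between 2 groups that did not leave out single tumours, Rag2 kept a difference between 2.77 and 3.32, with adjusted p from 0.0243 to 0.966. Of 85 genes recomputed under each alternative, not all of which are described above, 27 changed sign in at least 1 alternative, and none of these was called either way. No list median among 371 compared moved by more than 1 SD of that list's score between tumours of a group, a wide margin within which several medians changed sign without tumours 1, 2, 18 and 27. Ranking by the mean of all Rag1 probe sets gives the same order, since 1 is listed. No paired analysis was possible because all tumours are in 1 labelled group. Rag2 levels in Rag1-low lymphomas overlapped those in the 6 tumours with low Pou2af1, so its log2 difference may understate the ratio and no fold is given.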

Other observations

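Genes at an unadjusted p under 0.05 were unevenly spread over chromosomes, which is given as a description with no test. On chromosome 18, 60 of 458 genes were higher and 12 lower in Rag1-high lymphomas (15.7%, against 8.25% of all genes). The median level of chromosome 18 genes with a mean of at least 7, relative to each gene's mean, was 0.47 in tumour 29 and 0.33 in tumour 21. It ran from -0.03 to 0.13 in the other 8 Rag1-high lymphomas and from -0.19 to 0.08 in the Rag1-low ones. Without tumours 21 and 29 the counts on chromosome 18 were 33 higher and 12 lower (9.83%, against 5.61% of all genes). Chromosome 15 held 65 higher and 21 lower genes of 724 (11.9%), and 41 and 12 without these tumours (7.32%). Its median was 0.24 in tumour 21. Chromosome 11 held 116 higher and 49 lower genes of 1443 (11.4%), and its median was 0.32 in tumour 21. Without tumours 21 and 29 it held 50 and 31, or 5.61%, the same as the share of all genes. Chromosome 3 held 65 higher and 31 lower of 913 (10.5%), and 104 and 18 without them (13.4%). The highest chromosome medians of tumour 21 were on chromosomes 5 (0.61) and 10 (0.40).

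Xist, which is transcribed from the inactive X chromosome, was at 13.15 or more in 6 of 10 Rag1-high and 3 of 10 Rag1-low lymphomas, was 10.16 in the Rag1-low tumour 27 and was 5.89 or less in the others. The difference was 1.94 ± 1.61 for Xist and -1.76 ± 1.38 for the Y-linked gene Eif2s3y, and neither was called by limma (adjusted p of 0.66 and 0.65). Tumour 27 also had Eif2s3y at 10.13, while the other tumours of both groups with high Xist had 3.06 or less of it. Tumour 27 was among the Rag1-low tumours 1, 2, 18 and 27 left out in fits above, and the reason for its levels was not tested. The sex of the mice is not given in the labels, and its part in the results was not tested.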
